A study of Mus musculus with 18 samples.

Results

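Hepatic expression of 35 genes of fatty acid and triglyceride synthesis was examined in mice with and without FXR, the nuclear receptor for bile acids that Nr1h4 encodes, and with and without its synthetic agonist GW4064. The genes were chosen by function: regulators of lipogenesis, enzymes that supply acetyl-CoA, NADPH and pyruvate, enzymes that build, elongate and desaturate fatty acids, enzymes that assemble triglyceride, and lipases, uptake and lipid droplet proteins. A probe set named for the gene alone was found for 32 of the 35 among 12394 genes in all. Slc25a1, G6pdx and Agpat2 had none, and are not analysed here. Liver RNA was hybridised to 18 arrays in 6 groups (n = 3 arrays per group). The mice were wild type (WT), Liver Fxr KO (AFXR Cre+, in which floxed Fxr is deleted by Cre under the albumin promoter) or Whole body Fxr KO, and each genotype received vehicle or GW4064. All were males of 10 to 16 weeks on a C57BL/6J background. By the sample labels, GW4064 was gavaged at 150 mg/kg in the evening and again the next morning. Livers were taken 2 hours after the second dose. The study's methods name another array and describe WT mice only, with another dose and number of doses and an overnight fast. Whether those methods describe these mice is not stated, and the values do not decide it. Because the albumin promoter is used mainly by hepatocytes, other cells of a Liver Fxr KO liver, and other organs of that mouse, may keep the gene. Which cells kept it was not measured. Nothing in the labels says that replicates came from separate litters or days, so the p-values measure only the spread between these samples.

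De novo lipogenesis turns citrate that leaves the mitochondria into acetyl-CoA and then, with NADPH, into palmitate, which is elongated, desaturated and esterified to glycerol as triglyceride. In the liver the pathway is driven after feeding by SREBP-1c (from Srebf1), which answers to insulin, and by ChREBP (from Mlxipl), which answers to glucose. FXR is known to lower hepatic lipogenesis in part through SHP (from Nr0b2), a receptor that represses other transcription factors.

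The targeted gene separated the genotypes: Nr1h4 lay between 8.83 and 9.39 in the 6 WT arrays and between 3.98 and 4.69 in the 12 knockout arrays (log2 expression). Nr0b2, a direct target of FXR, lay at 7.85, 7.86 and 8.21 in WT vehicle and at 10.84, 9.59 and 9.04 in WT GW4064 replicates 1, 2 and 3. Its Liver Fxr KO values ran from 7.56 to 8.18 with vehicle and from 8.66 to 9.04 with GW4064, again without overlap, whereas those of Whole body Fxr KO ran from 8.16 to 8.77 and, with GW4064, from 7.04 to 8.04. Hepatocyte markers were at mean levels of 11.59 to 14.89. Adipocyte markers ran from 3.63 (the hormone gene Adipoq) to 13.94 (Car3), with a middle value of 5.86. Cholangiocyte markers ran from 3.63 (the channel gene Cftr) to 6.77 (Slc4a2). Markers of pancreas and intestine ran from 3.53 (the ileal carrier gene Fabp6) to 9.69 (Fabp2). The arrays of 2 livers stood apart from the rest, WT GW4064 replicate 1 and Whole body Fxr KO GW4064 replicate 3, with interquartile ranges of relative expression of 0.255 and 0.224 against 0.130 to 0.196 in the other arrays. For members whose arrays are given, and for the medians over all members, the difference without one of these arrays is also given where it moved by over 1.5 times.

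Promoter sequences were read for the elements that lipogenic factors are known to use. Of the 32 members, 26 have a promoter window in RefSeq (GRCm38.p6), which spans 250 bases before to 50 after a start site, with 39 windows in all. CCAAT, the element bound by NF-Y, was found on either strand in a window of 18 of the 26 members (69.2%), and in 41.1% of all 27025 genes with a window. The members had more windows per gene than other genes, and counted by window it was found in 20 of 39 (51.3%) against 37.4% of all 32851 windows. The E-box CACGTG was found in 4 members (15.4%, against 8.09% of all genes, and 10.3% against 7.15% by window), namely Mlxipl, Elovl5, Lpin2 and Plin2, and the sterol regulatory element TCACNCCAC in Mlxipl alone (3.85%, against 1.44%, and 2.56% against 1.24% by window). The core of the FXR inverted repeat, GGTCANTGA, was found in none of the 26 and in 0.962% of all genes. Matches are descriptions of letters and no evidence of binding, and motifs were searched without regard to overlap with one another. The 120 bases before the first start site are shown for 6 members whose values are described below, to set the stretch before fatty acid synthase, with several CCAAT elements, beside one with none; they stand 5′ to 3′ on the gene's strand, with capitals marking CCAAT or its complement ATTGG.
Fasn, chr11:120824548-120824667, minus strand: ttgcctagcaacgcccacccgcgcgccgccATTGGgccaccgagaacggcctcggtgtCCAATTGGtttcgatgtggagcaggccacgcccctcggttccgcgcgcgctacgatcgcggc
Acss2, chr2:155517923-155518042, plus strand: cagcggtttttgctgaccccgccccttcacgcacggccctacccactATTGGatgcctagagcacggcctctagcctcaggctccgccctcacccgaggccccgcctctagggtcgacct
Acly, chr11:100528001-100528120, minus strand: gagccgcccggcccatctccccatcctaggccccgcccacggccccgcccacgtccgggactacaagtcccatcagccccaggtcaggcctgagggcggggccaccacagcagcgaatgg
Gpam, chr19:55127239-55127358, minus strand: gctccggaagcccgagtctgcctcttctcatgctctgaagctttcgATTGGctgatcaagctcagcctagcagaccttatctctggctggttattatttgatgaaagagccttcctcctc
Elovl5, chr9:77917245-77917364, plus strand: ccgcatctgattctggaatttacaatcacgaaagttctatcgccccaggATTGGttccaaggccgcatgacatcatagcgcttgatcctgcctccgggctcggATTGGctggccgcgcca
Pgd, chr4:149166706-149166825, minus strand: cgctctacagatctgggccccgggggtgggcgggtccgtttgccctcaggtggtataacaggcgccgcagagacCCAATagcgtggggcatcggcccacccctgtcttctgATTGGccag
Fasn holds 3 matches in this stretch, of which 2 overlap head to head. Elovl5 and Pgd hold 2 each, Acss2 and Gpam 1 each, and Acly none, its match lying after the start site.

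In WT livers 28 of the 32 members had a log2 fold change (GW4064 over vehicle) below 0 (51.2% of all genes did), and no single member passed the test. The median was -0.35, against -0.00 over all genes. Fitted with limma over all genes, none passed an adjusted p of 0.05, a threshold that 0.194% of all genes passed. At an unadjusted p under 0.05, 12 members were lower and 1 was higher (background for lower, 6.45% of all genes). In 4 members every GW4064 array lay below every vehicle array (background 7.64%), and in 1 every one lay above. The methods' t-test called 0 members at the thresholds of the study (1.5 fold and an unadjusted p under 0.05), and 0 after adjustment. The 3 GW4064 arrays differed from one another: the median of the members lay 0.74, 0.34 and 0.11 below the WT vehicle mean in replicates 1, 2 and 3. Without GW4064 replicate 1, which stood apart, 6 members were lower at an unadjusted p under 0.05 (3.50% of all genes), the median was -0.22 and none passed the adjusted test. Without vehicle replicate 3 that count was 7 (5.58%). Without GW4064 replicate 3, 16 were lower (8.14%), the median was -0.64 and 8 passed the adjusted test, as did 2.16% of all genes, namely Me1, Elovl6, Mlxipl, Acly, Scd1, Fasn and Fads2, lower, and Agpat3, higher.

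**Figure D1:**
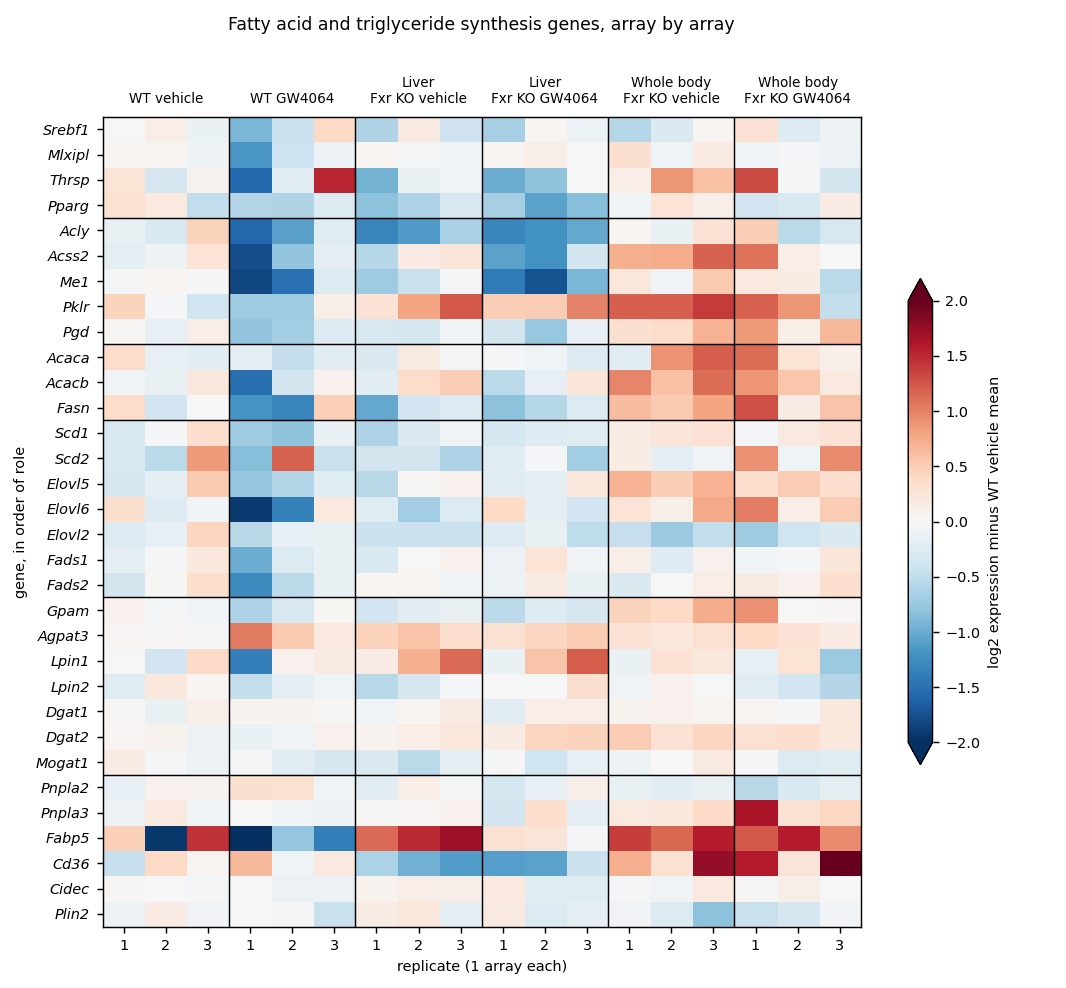
Log2 expression of the 32 measured members (rows, in order of role, lines between roles) in each of the 18 arrays (columns, replicates 1 to 3 of 6 groups), as the difference from the WT vehicle mean; colours saturate at 2 in either direction. WT GW4064 replicate 1 is blue over most rows (median -0.74), the Whole body Fxr KO vehicle arrays are mostly red (medians 0.15 to 0.30), and Fabp5 is uneven among the WT vehicle arrays.

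The regulators spread widely among the WT GW4064 arrays. Srebf1, which encodes the insulin-driven activator SREBP-1c, lay at 9.77, 9.91 and 9.65 with vehicle and at 8.87, 9.34 and 10.17 with GW4064 (log2 fold change -0.31, standard error 0.28, adjusted p = 0.710). The GW4064 values lay on both sides of the vehicle values, and the difference was -0.02 without GW4064 replicate 1 and -0.67 without replicate 3. Mlxipl, which encodes the glucose-driven activator ChREBP, lay at 10.04, 10.04 and 9.89 with vehicle and at 8.82, 9.57 and 9.88 with GW4064 (log2 fold change -0.57, standard error 0.18, adjusted p = 0.206). Its groups did not overlap, but GW4064 replicate 3 lay just under the lowest vehicle array, and without GW4064 replicate 1 the difference was -0.27. Pparg, a receptor that promotes fat storage, lay at 7.27, 7.16 and 6.48 with vehicle and at 6.38, 6.37 and 6.70 with GW4064 (-0.49, adjusted p = 0.302). Vehicle replicate 3 lay within the range of its GW4064 arrays. Thrsp, a small protein that follows lipogenesis, spanned 10.07 to 13.15 with GW4064 and 11.29 to 11.90 with vehicle.

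The enzymes that supply carbon and reducing power held the lowest group median, with all 5 measured members below 0 (median -0.91). In limma 4 of them had an unadjusted p under 0.05 (background for lower, 6.45% of all genes). Me1, malic enzyme, which makes NADPH, lay at 10.93, 10.99 and 10.92 with vehicle and at 9.12, 9.46 and 10.67 with GW4064, 2.29 fold lower (log2 fold change -1.20, standard error 0.32, adjusted p = 0.138). Its groups did not overlap, and the vehicle arrays were close together. Acss2, which activates acetate to acetyl-CoA, lay at 10.81, 10.88 and 11.26 with vehicle and at 9.21, 10.19 and 10.81 with GW4064 (-0.91, standard error 0.35, adjusted p = 0.290). Its highest GW4064 array and its lowest vehicle array met at about the same level, and without GW4064 replicate 1 the difference was -0.48. Acly, ATP citrate lyase, lay at 11.23, 11.07 and 11.83 with vehicle and at 9.81, 10.29 and 11.14 with GW4064 (-0.96, standard error 0.30, adjusted p = 0.206). GW4064 replicate 3 overlapped the vehicle arrays. Pgd, which makes NADPH in the pentose phosphate pathway, lay at 9.64, 9.45 and 9.75 with vehicle and at 8.83, 8.93 and 9.36 with GW4064 (-0.57, standard error 0.19, adjusted p = 0.220), and its groups did not overlap. Pklr, liver pyruvate kinase and a known target of ChREBP, had a log2 fold change of -0.44.

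Fatty acid synthesis itself was uneven among the WT GW4064 arrays. Fasn, fatty acid synthase, lay at 10.62, 9.86 and 10.26 with vehicle and at 9.07, 8.92 and 10.73 with GW4064 (log2 fold change -0.67, standard error 0.38, adjusted p = 0.492). The first pair of GW4064 arrays lay below every vehicle array and replicate 3 lay above every one of them; the difference was -0.42 without GW4064 replicate 1, -0.35 without replicate 2 and -1.25 without replicate 3. Acaca and Acacb encode the acetyl-CoA carboxylases, whose product malonyl-CoA feeds synthesis and restrains oxidation. Acaca lay at 6.12, 5.58 and 5.54 with vehicle and at 5.56, 5.27 and 5.53 with GW4064 (-0.29, adjusted p = 0.761). Acacb lay at 7.78, 7.69 and 8.05 with vehicle and at 6.33, 7.48 and 7.92 with GW4064 (-0.59, adjusted p = 0.458). Both overlapped. Without GW4064 replicate 1 the difference of Acacb was -0.14 (-0.93 without replicate 3), and without vehicle replicate 1 that of Acaca was -0.11.

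All 7 measured elongases and desaturases had log2 fold changes below 0 in WT (median -0.54). In limma 5 had an unadjusted p under 0.05 (background for lower, 6.45% of all genes), although none passed the adjusted test. Elovl6, which elongates palmitate, lay at 9.40, 8.82 and 9.02 with vehicle and at 7.16, 7.73 and 9.28 with GW4064 (log2 fold change -1.02, standard error 0.39, adjusted p = 0.280). GW4064 replicate 3 lay among the vehicle arrays. Without replicate 1 the difference of Elovl6 was -0.57 and without replicate 3 it was -1.63. Scd1, which desaturates stearate to oleate, lay at 13.52, 13.80 and 14.16 with vehicle and at 13.12, 13.02 and 13.69 with GW4064 (-0.55, standard error 0.17, adjusted p = 0.215). The other probe set of Scd1, at a mean level of 10.59 against 13.69, had a larger difference, -1.05. Fads2, the first desaturase of polyunsaturated fatty acids, lay at 10.13, 10.51 and 10.84 with vehicle and at 9.22, 9.97 and 10.34 with GW4064 (-0.65, standard error 0.22, adjusted p = 0.224). Scd1 and Fads2 each had 1 GW4064 array within the vehicle range, and without GW4064 replicate 1 the difference of Fads2 was -0.34. Elovl5, Fads1, Elovl2 and Scd2 had log2 fold changes of -0.54, -0.47, -0.29 and -0.04, and 1 of the 3 probe sets of Scd2 lay above 0 (0.04).

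In triglyceride assembly 5 of 7 measured members were below 0, with a median of -0.19. Agpat3, an acyltransferase, was the single member that was higher in every GW4064 array: it lay at 8.95, 8.96 and 8.89 with vehicle and at 9.98, 9.45 and 9.13 with GW4064 (log2 fold change 0.59, standard error 0.14, adjusted p = 0.121, the lowest of the members; without GW4064 replicate 1, 0.36). Dgat2, which makes triglyceride from newly made fatty acids, lay at 11.35, 11.38 and 11.19 with vehicle and at 11.18, 11.24 and 11.39 with GW4064 (-0.04, adjusted p = 0.925; without GW4064 replicate 1, 0.01). Its groups covered the same range. The other measured members of the step, Gpam, Lpin1, Lpin2, Dgat1 and Mogat1, had log2 fold changes between -0.38 and 0.06.

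Lipases, uptake and lipid droplet genes had a median of -0.06 in WT. Fabp5, a fatty acid carrier, had the largest difference of all members, but on vehicle arrays that disagreed: it lay at 11.04, 8.63 and 12.01 with vehicle and at 8.34, 9.79 and 9.17 with GW4064 (log2 fold change -1.46, standard error 0.56, adjusted p = 0.281). Vehicle replicate 2 lay within the GW4064 range, and without it Fabp5 passed the test (-2.43, adjusted p = 0.0110, where 0.0807% of all genes passed), while without vehicle replicate 3 the difference was -0.73. Plin2, which coats lipid droplets, lay at 11.85, 12.11 and 11.88 with vehicle and at 11.95, 11.91 and 11.50 with GW4064 (-0.16, adjusted p = 0.786). Its arrays overlapped. Pnpla2, Pnpla3, Cd36 and Cidec had log2 fold changes between -0.07 and 0.25.

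**Figure D2:**
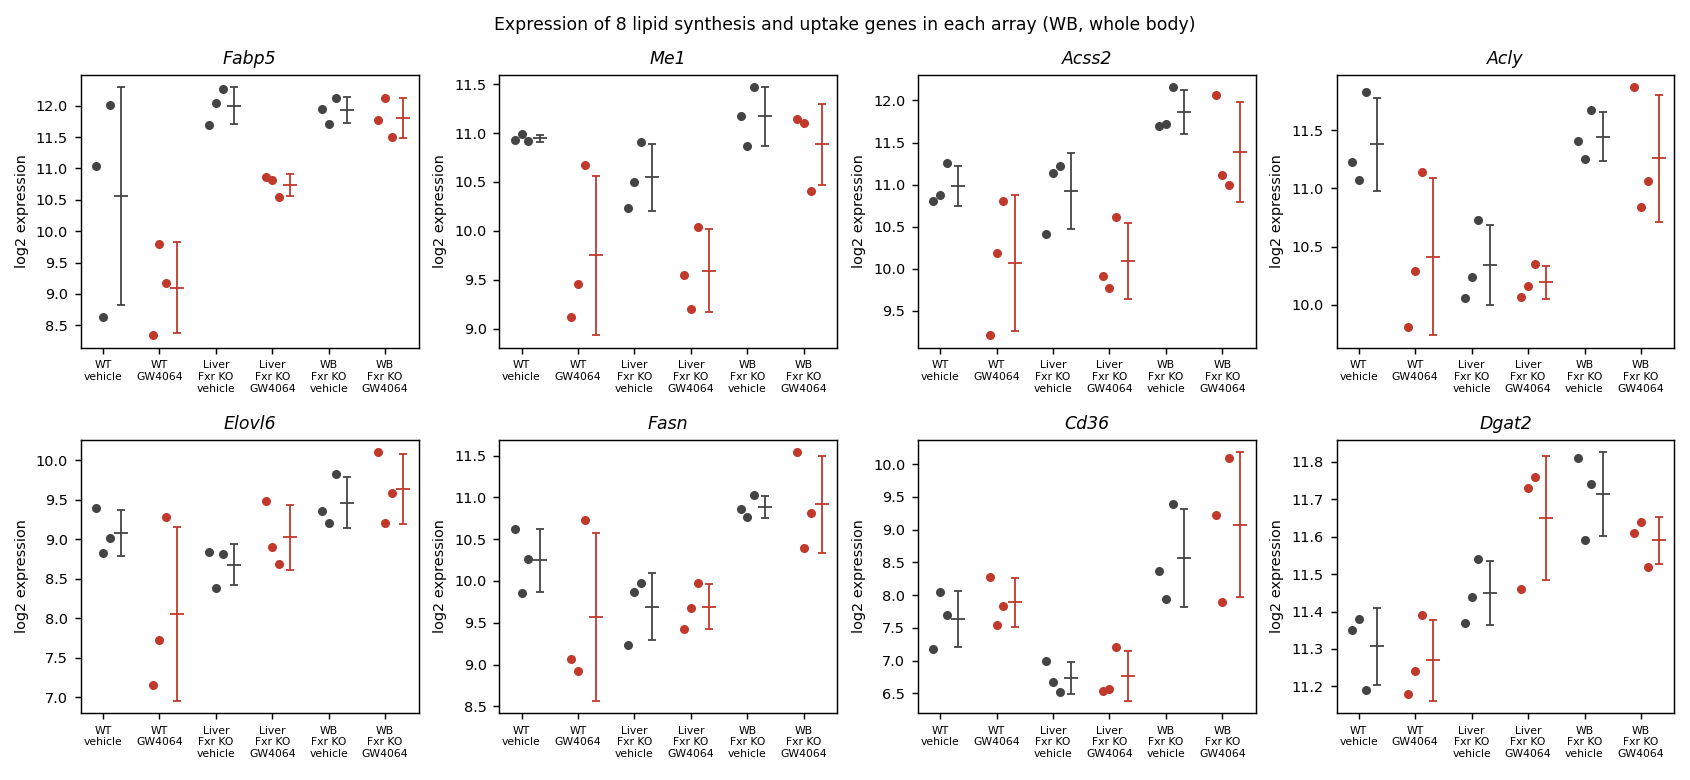
Log2 expression of 8 members in each array (points, replicates 1 to 3 from left to right; grey, vehicle; red, GW4064) with the group mean and SD beside them (n = 3), for WT, Liver Fxr KO and Whole body Fxr KO (WB); the vertical axes differ between genes and do not start at 0. Me1 was lower with GW4064 without overlap in WT and in Liver Fxr KO, Fasn and Elovl6 had 1 of 3 WT GW4064 arrays at or above the vehicle mean, and Dgat2 was higher in Whole body Fxr KO vehicle (11.59 to 11.81) than in WT vehicle (11.19 to 11.38).

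GW4064 was also given to mice that lack its receptor in hepatocytes, which asks how much of the difference in WT needs hepatocyte FXR. In Liver Fxr KO, 19 of 32 members were below 0 (50.8% of all genes were). The median of the members was -0.07, which turned to 0.02 without GW4064 replicate 1 and was -0.13 without vehicle replicate 1. With limma 0 members passed an adjusted p of 0.05, as did 0% of all genes, and the methods' t-test called 2 as lower at the study's thresholds (0.129% of all genes) and 0 after adjustment. At an unadjusted p under 0.05 in limma, 3 members were lower and 1 was higher (background for lower, 2.44%; 1 was lower without vehicle replicate 2 or 3 or GW4064 replicate 2), and in 2 all GW4064 arrays lay below all vehicle arrays (background 6.13%). The largest differences were those of Fabp5, Me1 and Acss2, which supply NADPH and acetyl-CoA or carry fatty acids, and which are also among the 5 largest in WT. Me1 lay at 10.23, 10.50 and 10.91 with vehicle and at 9.55, 9.20 and 10.04 with GW4064 (log2 fold change -0.95, standard error 0.32, adjusted p = 0.825). The other probe set of Me1 had -0.63. Fabp5 lay at 11.69, 12.05 and 12.27 with vehicle and at 10.86, 10.81 and 10.54 with GW4064 (-1.26, standard error 0.56, adjusted p = 0.959). Neither gene's groups overlapped in Liver Fxr KO. Acss2 lay at 10.41, 11.14 and 11.22 with vehicle and at 9.91, 9.77 and 10.61 with GW4064 (-0.82, adjusted p = 0.959), with 1 overlapping array on each side. Lpin2, a phosphatidate phosphatase, lay higher with GW4064, at 10.51, 10.51 and 10.82 against 9.94, 10.17 and 10.47 (0.42, adjusted p = 0.875). Fasn, Scd1 and Acly, by contrast, had log2 fold changes of 0.00, 0.05 and -0.15 with standard errors of 0.38, 0.17 and 0.30. The other probe set of Scd1 had -0.14.

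In Whole body Fxr KO, which lacks the receptor in every organ, 18 of 32 members were below 0 with GW4064 (54.1% of all genes were). The median of the members was -0.13 against -0.01 over all genes. With 1 array left out the median of the members ran from -0.13 to -0.03. It was -0.03 without GW4064 replicate 3 and -0.04 without GW4064 replicate 2. With limma 0 members and 0% of all genes passed the adjusted test, and by the methods' t-test 0 were called with or without adjustment. Lpin2 was lower and Pnpla3 higher at an unadjusted p under 0.05, 1 each, where the background for lower was 3.37%; 2 were lower without vehicle replicate 1 or GW4064 replicate 2 and 4 without GW4064 replicate 1. In 2 members, Lpin2 and Pklr, all GW4064 arrays lay below all vehicle arrays (background 5.95%). Acss2, Me1 and Fabp5, the members furthest below 0 in Liver Fxr KO, had log2 fold changes of -0.47, -0.29 and -0.13 here. The other probe set of Acss2 had -0.55. Pklr lay at 9.54, 9.54 and 9.74 with vehicle and at 9.53, 9.22 and 7.87 with GW4064 (log2 fold change -0.73, adjusted p = 0.800). Most of that difference was in replicate 3, which stood apart, and without it the value was -0.23. Cd36, a fatty acid transporter, lay at 8.36, 7.94 and 9.39 with vehicle and at 9.22, 7.90 and 10.10 with GW4064 (0.51, adjusted p = 0.905), and the difference was -0.00 without replicate 3 and 1.10 without replicate 2. Pnpla3, a lipase-like droplet protein, lay at 5.21, 5.22 and 5.39 with vehicle and at 6.65, 5.31 and 5.43 with GW4064 (0.53, adjusted p = 0.798), and without GW4064 replicate 1 the difference was 0.10. Scd2, a desaturase used mainly outside the liver, lay at 5.47, 5.13 and 5.25 with vehicle and at 6.23, 5.23 and 6.27 with GW4064 (0.63, adjusted p = 0.862; 0.97 without GW4064 replicate 2). Pnpla3 and Scd2 were among the 40% of genes with the lowest mean over all arrays.

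**Figure D3:**
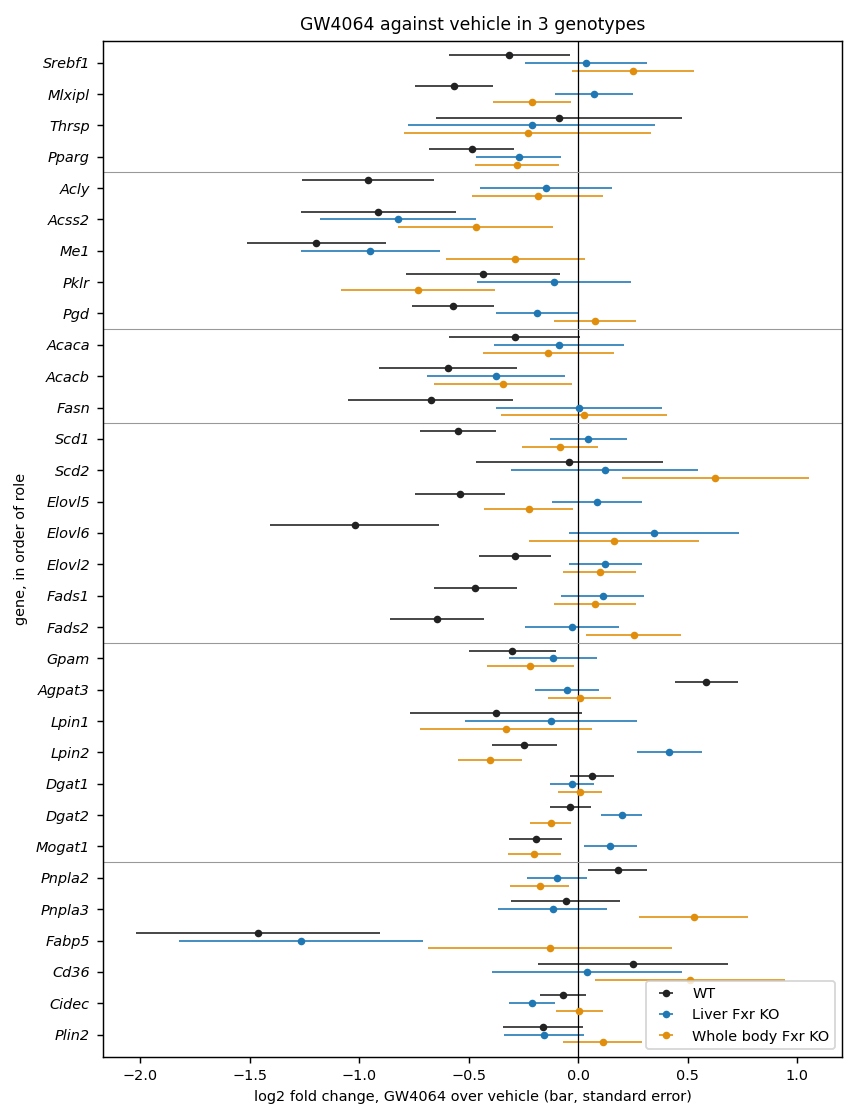
Log2 fold change of each member with GW4064 over vehicle (points; bars, standard error from limma; n = 3 arrays per group) in WT (black), Liver Fxr KO (blue) and Whole body Fxr KO (orange), in order of role. Points of WT lie below 0 for 28 of 32 members, Me1, Acss2 and Fabp5 lie well below 0 in WT and Liver Fxr KO, and the desaturases and elongases lie near or above 0 in both knockouts. Acss2 lies below 0 in Whole body Fxr KO as well (-0.47).

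The difference of the GW4064 effects was tested directly, with the WT arrays shared by both tests. Against Liver Fxr KO, 25 of 32 members had a more negative effect in WT (50.1% of all genes did), with a median difference of -0.24. With limma 0 members passed the adjusted test (0% of all genes). Effects were more negative in WT for 6 members and more positive for 1 at an unadjusted p under 0.05 (background for more negative, 3.59%). The elongases and desaturases made up 4 of those 6. The largest difference was that of Elovl6 (-1.37, standard error 0.55, adjusted p = 0.600), whose Liver Fxr KO arrays lay at 8.84, 8.38 and 8.81 with vehicle and at 9.48, 8.90 and 8.69 with GW4064, not lower. Acly and Fasn differed by -0.81 and -0.68 (adjusted p = 0.713 and 0.830). In Liver Fxr KO, Acly was already low with vehicle, at 10.06, 10.24 and 10.73, and stayed between 10.07 and 10.35 with GW4064. Fasn there lay at 9.23, 9.87 and 9.97 with vehicle and at 9.43, 9.68 and 9.97 with GW4064. Lpin2 differed by -0.66 (standard error 0.21, adjusted p = 0.525). Without WT GW4064 replicate 1, Acly and Fasn differed by -0.51 and -0.43, the median difference was -0.13 and 3 members were more negative at an unadjusted p under 0.05 (2.59% of all genes), a count that was also 3 without WT GW4064 replicate 2 or Liver Fxr KO vehicle replicate 1. Without WT GW4064 replicate 3 it was 11 (5.12%), and Elovl6 (-1.98, adjusted p = 0.0315) and Agpat3 (0.83, adjusted p = 0.0410) passed, as did 0.403% of all genes.

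Against Whole body Fxr KO, 24 of 32 members had a more negative effect in WT (48.4% of all genes did) and the median difference was -0.29. With limma 0 passed the adjusted test, again among 0% of all genes, and 3 were more negative and 1 more positive at an unadjusted p under 0.05 (background for more negative, 3.77%). Fabp5 differed by -1.33 (standard error 0.79, adjusted p = 0.676; -2.30 without WT vehicle replicate 2 and -0.61 without WT vehicle replicate 3), with Whole body Fxr KO arrays at 11.95, 11.71 and 12.13 with vehicle and 11.78, 12.13 and 11.50 with GW4064. Elovl6 differed by -1.18 (adjusted p = 0.599), its arrays lying at 9.36, 9.20 and 9.83 with vehicle and at 10.10, 9.21 and 9.59 with GW4064. Me1 differed by -0.91 (adjusted p = 0.622), with arrays at 11.17, 10.87 and 11.47 and at 11.14, 11.10 and 10.41. Fads2 had the smallest standard error of these genes (-0.90, standard error 0.31, adjusted p = 0.463), at 10.21, 10.48 and 10.63 with vehicle and 10.67, 10.58 and 10.83 with GW4064. Both arrays that stood apart enter this comparison; without them Fabp5, Elovl6, Me1 and Fads2 differed by -1.10, -0.76, -0.83 and -0.52, the median difference was -0.15 and 0 members were past an unadjusted p of 0.05 in either direction. Without WT GW4064 replicate 1 alone, Elovl6, Me1 and Fads2 differed by -0.74, -0.59 and -0.59. The count of 3 became 1 without WT vehicle replicate 3, WT GW4064 replicate 1 or Whole body Fxr KO vehicle replicate 2, 5 without WT vehicle replicate 1 or Whole body Fxr KO GW4064 replicate 2, and 10 without WT GW4064 replicate 3 (620 of all 12394 genes).

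Some other gene lists followed the members' order across the WT GW4064 arrays, and some did not. Medians of the genes of cholesterol synthesis and uptake, against the WT vehicle mean, lay at -0.51, -0.75 and -0.17 in replicates 1, 2 and 3. Those of Kupffer cell and macrophage markers lay at -0.48, 0.52 and -0.45. Neither list was in the members' order. The median of 26 acute-phase genes lay 2.21, 1.29 and 0.23 above the WT vehicle mean in WT GW4064 replicates 1, 2 and 3, in the same order as the members' medians of -0.74, -0.34 and -0.11. Of the 26, 25 lay above 0 with GW4064 in WT. In limma 21 were higher at an unadjusted p under 0.05 (background for higher, 765 of all 12394 genes). Lcn2, a secreted acute-phase protein, rose by 5.50 (log2 fold change, adjusted p = 0.0433), with WT GW4064 arrays from 8.22 to 13.65. Il1r1, the receptor for interleukin 1, rose by 1.62 (adjusted p = 0.0433). By the adjusted test 24 of 26 did not pass. In all other groups the list's array medians lay between -0.14 and 0.50. Endothelial markers lay below 0 in 10 of 10 genes with GW4064 in WT, with array medians of -0.81, -0.29 and -0.14. Markers of stellate cells and fibroblasts did so in 8 of 9, with -1.02, -0.24 and -0.21. In limma 0 of either list passed the adjusted test, and 9 and 7 were lower at an unadjusted p under 0.05 (background for lower, 6.45% of all genes). The endothelial difference was not confined to WT. With GW4064 in Whole body Fxr KO, 9 of 10 endothelial markers were below 0 (median -0.31), 5 of them at an unadjusted p under 0.05 in limma (background for lower, 3.37%). In Liver Fxr KO 7 of 10 were below 0 (median -0.02). Stellate cell and fibroblast markers had medians of -0.05 in both knockouts. In the WT GW4064 arrays hepatocyte markers had medians between -0.06 and 0.03. Adipocyte markers had medians between -0.24 and -0.14 there, with mean levels from 3.63 (Adipoq) to 13.94 (Car3). The part of these lists in the members' differences was not tested. In bulk liver, fewer cells of a type and less RNA per cell cannot be told apart.

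**Figure D4:**
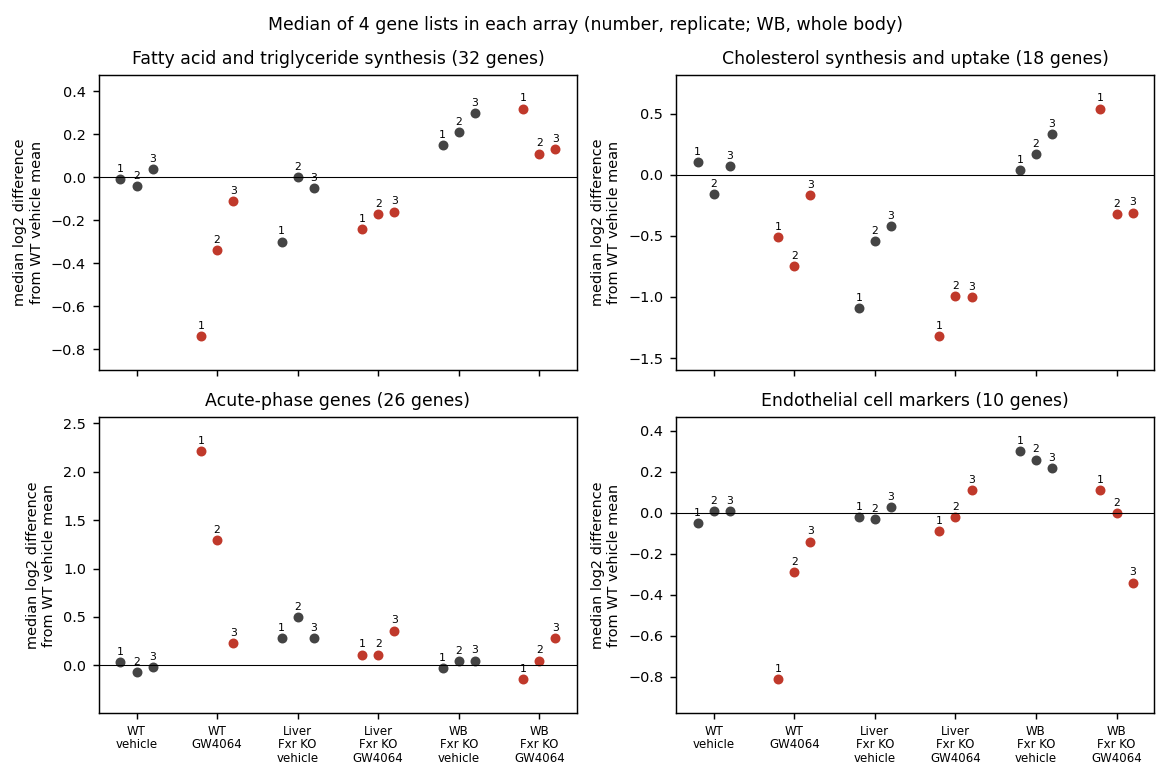
Median difference from the WT vehicle mean (log2) over the genes of 4 lists in each array (points labelled by replicate number; grey, vehicle; red, GW4064), with axes that differ between panels. WT GW4064 replicate 1 is lowest for the members (-0.74) and endothelial markers (-0.81) and highest for acute-phase genes (2.21), and the cholesterol list is lowest in Liver Fxr KO.

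The vehicle arrays ask what the loss of FXR does without an agonist. In Liver Fxr KO vehicle against WT vehicle 22 of 32 members were below 0 (52.7% of all genes were). The median of the members was -0.11 (between -0.21 and -0.04 with 1 array left out) against -0.01 over all genes. None passed the adjusted test in limma, which 0.879% of all genes passed. At an unadjusted p under 0.05, 4 were lower and 3 higher (background for lower, 6.41%), in 6 all knockout arrays lay below all WT arrays (background 10.5%), and the methods' t-test called 2 lower at the study's thresholds (0.654% of all genes) and 0 after adjustment. Acly lay at 10.06, 10.24 and 10.73 against 11.23, 11.07 and 11.83 in WT, 2.04 fold lower (log2 fold change -1.03, standard error 0.30, adjusted p = 0.128) without overlap. All 5 probe sets of Acly lay below 0, with log2 fold changes between -1.17 and -0.28. Those nearest 0, at -0.30 and -0.28, were near the floor, with mean levels of 3.64 and 3.23, and add little. Cd36 lay at 7.00, 6.68 and 6.52 against 7.18, 8.04 and 7.69 (-0.90, adjusted p = 0.404), again without overlap. Pklr lay higher, at 8.64, 9.14 and 9.57 against 8.79, 8.30 and 7.94 (0.77, adjusted p = 0.373), with overlap at the low end. Fabp5 lay at 11.69, 12.05 and 12.27 against 11.04, 8.63 and 12.01 (1.44, adjusted p = 0.280; 0.48 without WT vehicle replicate 2). Pparg lay at 6.15, 6.35 and 6.65 and was lower by the test only without WT vehicle replicate 3 (-0.83, adjusted p = 0.0451, where 0.541% of all genes passed).

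In Whole body Fxr KO vehicle against WT vehicle 24 of 32 members were above 0 (46.6% of all genes were) and the median was 0.23, against -0.01 over all genes. Dgat2 rose, from 11.35, 11.38 and 11.19 in WT to 11.81, 11.59 and 11.74, 1.32 fold (log2 fold change 0.40, standard error 0.09, adjusted p = 0.0464), without overlap and in both of its probe sets (0.40 and 0.54). It was the one member to pass in limma, where 1.14% of all genes did. The call was narrow: leaving out any of the 6 arrays put the adjusted p of Dgat2 between 0.0507 and 0.174. Unadjusted, 10 members were higher and 2 lower at a p under 0.05 (background for higher, 6.57%); 6 were higher without WT vehicle replicate 2 and 4 without Whole body Fxr KO vehicle replicate 3. In 9 all knockout arrays lay above all WT arrays (background 9.63%).

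The genes that lay higher came from most steps. Pklr lay at 9.54, 9.54 and 9.74 against 8.79, 8.30 and 7.94 in WT, 2.40 fold higher (log2 fold change 1.26, standard error 0.35, adjusted p = 0.108). Acacb lay at 8.81, 8.42 and 8.96 against 7.78, 7.69 and 8.05 (0.89, standard error 0.32, adjusted p = 0.218). Neither gene's groups overlapped. Acaca, the other carboxylase, lay at 5.53, 6.65 and 6.96 against 6.12, 5.58 and 5.54 (0.64, adjusted p = 0.369). All 5 genes of the supply step and all 3 of fatty acid synthesis were above 0, with medians of 0.46 and 0.64, whereas elongation and desaturation had a median of -0.02. Fasn lay at 10.86, 10.77 and 11.03 against 10.62, 9.86 and 10.26, above every WT array, and Scd1 at 13.98, 14.07 and 14.11 against 13.52, 13.80 and 14.16. This probe set of Scd1 had a log2 fold change of 0.23, and the other had 0.70. Srebf1 and Mlxipl were not higher in the same way: Srebf1 lay at 9.21, 9.49 and 9.81 against 9.65 to 9.91, and Mlxipl at 10.31, 9.91 and 10.15 against 9.89 to 10.04. Cd36 lay at 8.36, 7.94 and 9.39 against 7.18, 8.04 and 7.69 (0.93, adjusted p = 0.369), with overlap. Fabp5 lay at 11.95, 11.71 and 12.13 (1.37, adjusted p = 0.289; 0.40 without WT vehicle replicate 2). Plin2 lay lower, at 11.87, 11.68 and 11.12 against 11.85, 12.11 and 11.88 (-0.39, adjusted p = 0.367), and Elovl2 was the member furthest below 0 (-0.56, adjusted p = 0.132). Without WT vehicle replicate 3, Elovl5 passed in place of Dgat2 (0.89, adjusted p = 0.0381, where 0.815% of all genes passed).

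**Figure D5:**
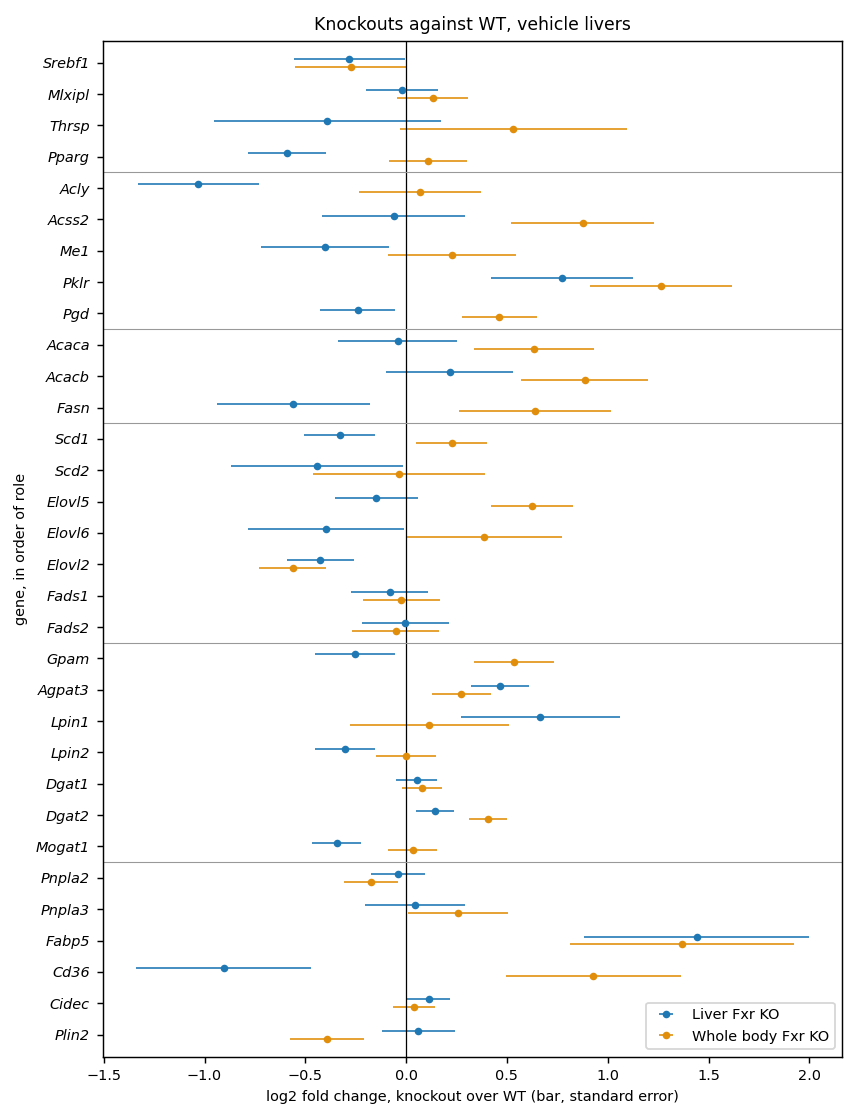
Log2 fold change of each member in Liver Fxr KO (blue) and Whole body Fxr KO (orange) over WT, vehicle arrays (points; bars, standard error from limma; n = 3 arrays per group, with the WT arrays shared). Fatty acid synthesis genes lie to the right of 0 in Whole body Fxr KO, Cd36 lies at -0.90 in Liver Fxr KO and at 0.93 in Whole body Fxr KO, and Fabp5 lies above 1 in both.

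The knockouts were also set against each other, with the same vehicle arrays. In Whole body Fxr KO against Liver Fxr KO, 24 of 32 members were above 0 (48.2% of all genes were) and the median was 0.39, against -0.01 over all genes. None passed in the fit on all 18 arrays (0.678% of all genes), where the lowest adjusted p was 0.0713, for Cd36. At an unadjusted p under 0.05, 13 were higher and 1 lower (background for higher, 6.16%), and in 16 members all Whole body arrays lay above all Liver arrays (background 11.0%). With the methods' t-test 9 were higher at the study's thresholds (0.944% of all genes), and 0 after adjustment. The result depended on how the spread was estimated: fitted on these 6 arrays alone, limma called 7 higher (1.07% of all genes), namely Gpam, Fasn, Acly, Cd36, Pgd, Pparg and Elovl5, and with array weights it called 4 (1.30%), namely Cd36, Gpam, Elovl5 and Acly. Cd36 lay at 8.36, 7.94 and 9.39 against 7.00, 6.68 and 6.52, 3.56 fold higher (log2 fold change 1.83, standard error 0.43). Fasn lay at 10.86, 10.77 and 11.03 against 9.23, 9.87 and 9.97 (1.20, standard error 0.38, adjusted p = 0.182). Acly lay at 11.41, 11.25 and 11.67 against 10.06, 10.24 and 10.73 (1.10, standard error 0.30, adjusted p = 0.115). Acss2 lay at 11.70, 11.72 and 12.16 against 10.41, 11.14 and 11.22 (0.94, standard error 0.35, adjusted p = 0.273). None of these 4 genes overlapped between the knockouts, and the same held for Gpam, which starts triglyceride synthesis (0.79, adjusted p = 0.0875), and Pparg (0.70, adjusted p = 0.119).

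Genes next to the pathway were read from lists of related function. Of 43 measured further genes of fatty acid and triglyceride synthesis and storage, 0 passed with GW4064 in any genotype. In WT, 9 were lower at an unadjusted p under 0.05 in limma (background for lower, 6.45% of all genes). Gpat4, an acyltransferase of the endoplasmic reticulum, was lower in both knockouts. It lay between 8.87 and 9.43 in WT vehicle, between 8.37 and 8.52 in Liver Fxr KO vehicle (log2 fold change -0.67, adjusted p = 0.0281) and between 8.43 and 8.57 in Whole body Fxr KO vehicle (-0.60, adjusted p = 0.0446). Of 19 measured regulators of lipogenesis, Nr0b2 rose by 1.85 with GW4064 in WT (adjusted p = 0.0433), and no other passed in any comparison. Of 18 measured genes of cholesterol synthesis and uptake, which answer to the related factor SREBP-2, all 18 were below 0 in Liver Fxr KO against WT (median -0.75) and all 18 above 0 in Whole body against Liver Fxr KO (median 0.91). In the latter, Hmgcs1, Fdft1 and Msmo1 were higher by log2 fold changes of 1.36, 1.42 and 1.37 (adjusted p = 0.0374, 0.0378 and 0.0494) and 15 did not pass. With GW4064 in WT all 18 were also below 0 (median -0.44), with 0 past the test and, at an unadjusted p under 0.05, 8 lower (background 6.45%). The direction was the same in the knockouts. In Liver Fxr KO 15 of 18 were below 0 (median -0.36), 6 of them at an unadjusted p under 0.05 (background 2.44%). In Whole body Fxr KO 17 of 18 were below 0 (median -0.26), 1 of them at that p (background 3.37%). For both differences of GW4064 effects, 0 of 18 had an unadjusted p under 0.05 in limma. Of 19 measured genes of fasting and the PPARα response, Acot1, an acyl-CoA thioesterase, fell by 1.60 on the log2 scale with GW4064 in WT (adjusted p = 0.0433), and Igfbp1 and Pdk4, both known to be restrained by insulin, were higher in Whole body than in Liver Fxr KO by 2.48 and 1.14 (adjusted p = 0.0219 and 0.0399). Among the markers of cell types, Hnf4a, a master regulator of hepatocytes, was lower in Whole body than in Liver Fxr KO (-0.47, adjusted p = 0.0481), in a list of which 7 of 10 genes lay above 0 there (median 0.04). The macrophage gene Mpeg1 was higher in Whole body Fxr KO than in WT (0.94, adjusted p = 0.0118), and all 9 Kupffer cell and macrophage markers lay above 0 in that comparison (median 0.33). So did 10 of 10 endothelial markers (median 0.28) and 7 of 9 markers of stellate cells and fibroblasts (median 0.37), none of which passed. In Liver Fxr KO against WT these 3 lists had 8 of 9, 4 of 10 and 4 of 9 above 0 (medians 0.27, -0.06 and -0.12). Mpeg1 was at 0.53 there (adjusted p = 0.179). In Whole body against Liver Fxr KO these 3 lists had 5 of 9, 10 of 10 and 5 of 9 above 0 (medians 0.03, 0.26 and 0.12). Their part in the members' differences was not tested.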

How the data were processed

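Liver RNA of 18 mice was measured on 18 arrays of 6 groups (n = 3 per group). The authors deposited log2 values, 1 per probe set and array, that they had made with RMA; its version is not stated. RMA subtracts background, normalizes by quantiles and summarises probes by median polish, which compresses small signals, and without detection calls no gene can be called absent. The methods name another array than the one whose probe sets the deposited table holds, so gene symbols were taken from the platform annotation: of 22690 probe sets, 20393 have 1 symbol, 691 several and 1606 none here. For each of 12394 genes the probe set with the highest mean was used. 18 of the 32 measured members have several probe sets, which had the same sign in 14 to 17 of 18 genes, depending on the comparison.

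A mean per group was fitted to all 18 arrays by lmFit and eBayes of limma 3.58.1 (R 4.3.3; 12 residual degrees of freedom). The two-sided p-values were Benjamini-Hochberg adjusted across the 12394 genes (threshold 0.05). 6 comparisons between groups and 2 differences of GW4064 effects were tested; those that share arrays are not independent. The members and lists were chosen with earlier results of these data known. The rule gave array values for members past the threshold, the 12 largest differences with GW4064 in WT, the 4 largest in each other comparison, and 8 members for their roles. For GW4064 in WT, data were simulated over 12394 genes with normal noise. Changes of 1.5, 2 and 4 fold were planted in 67, 67 and 66 genes, of which 73.1%, 97.0% and 100% were called. In the data 24 genes passed, and the adjusted threshold depends on how many genes change. These shares need not hold for genes that spread more widely than the simulated ones, and they do not describe the members. Precision is limited by the number of arrays. Promoter windows came from RefSeq (GRCm38.p6), and plots were drawn with matplotlib 3.10.9 in Python 3.11.15. Alternatives were other normalizations, priors, weights, filters, probe set rules, the methods' t-test, a replicate block, and each array left out. The fit without the 2 arrays that stood apart was chosen after seeing the data.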

Additional observations from a re-analysis of the deposited data

How the results depend on the processing

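Fitted on the compared groups only, limma called 1 member in Liver Fxr KO against WT (Agpat3, higher; 0.452% of all genes), 3 in Whole body Fxr KO against WT (Acss2, Pklr and Acacb, higher, with Dgat2 lost; 0.597%) and 7 in Whole body against Liver Fxr KO (1.07%). Array weights called 4 in the last (1.30%). With every probe set tested on its own, 0 members passed in Whole body Fxr KO against WT, as by the methods' t-test after adjustment. With the replicate number as a block, 0 passed there and 4 in Whole body against Liver Fxr KO (Pgd, Scd1, Elovl5 and Cd36; 0.484%), and no other count of calls moved by over 1.5 times. The numbers do not pair the samples: 18 correlations of same-numbered deviations lay between -0.21 and 0.34, and in 0 of 6 comparisons were all over 0.1. At the study's thresholds (unadjusted p with 1.5 fold) its t-test called 2 members in Liver Fxr KO with GW4064 (0.290% of all genes in either direction), 2 in Liver Fxr KO against WT (1.13%), 3 in Whole body Fxr KO against WT (1.40%) and 9 in Whole body against Liver Fxr KO (1.34%). By limma at those thresholds, 7 were called with GW4064 in WT (1.71%), 3 with GW4064 in Liver Fxr KO (0.460%), 4 in Liver Fxr KO against WT (1.45%), 7 in Whole body Fxr KO against WT (1.69%), 10 in Whole body against Liver Fxr KO (all higher; 1.02% in that direction), and 6 and 3 for the differences of GW4064 effects between WT and Liver or Whole body Fxr KO (1.81% and 1.98%). The cause of these differences was not tested. Without the 2 arrays that stood apart, the sign turned for Dgat2 with GW4064 in WT (0.0103) and for Cd36 with GW4064 in Whole body Fxr KO (-0.00389). Leaving out 1 array at a time, the count of members called ran from 0 to 8 with GW4064 in WT, from 0 to 1 in each knockout against WT and from 0 to 2 for the difference of effects between WT and Liver Fxr KO. The median ran from -0.64 to -0.22 with GW4064 in WT, and from -0.50 to -0.11 and -0.46 to -0.20 for the differences of effects between WT and Liver or Whole body Fxr KO. The log2 fold change ran from -0.0974 to 0.0103 for Dgat2 with GW4064 in WT and from -0.00389 to 1.10 for Cd36 in Whole body Fxr KO. Quantile normalization, median centring (shifts of at most 0.02), a trended prior, the mean of probe sets and leaving out the 40% dimmest genes, Scd2, Mogat1, Pnpla3 and Cidec among them, moved no count of calls by over 1.5 times. With 3 arrays per group, signal near the floor and uneven WT GW4064 arrays limit what can be detected.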
